A study of Homo sapiens with 18 samples.

Results

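The E2F family and its DP partners were followed at the level of messenger RNA in MDA-MB-231, an established human line of triple-negative breast cancer. The 10 genes E2F1 to E2F8, TFDP1 and TFDP2 were found by their Ensembl identifiers among 62703 genes, with symbols from GENCODE. They were chosen by name and not by any measured value, and all 10 passed the filter on low counts in every comparison. Cells of the knockdown experiment were transduced with lentivirus for 24 h and kept under puromycin at 2 µg/ml for 72 h, the control cells included, and carried a hairpin that served as control (control shRNA), one that targets EZH2 (shEZH2) or one that targets E2F1 (shE2F1). Cells of the drug experiment received the solvent DMSO or 1 uM GSK126, which blocks EZH2 as a methyltransferase, for 72 h. EZH2 is the catalytic subunit of the Polycomb complex PRC2. Each of the 5 groups held 2 distinct libraries, after 8 of 18 sample records were found to repeat another record value for value. Whether the 2 libraries of a group came from separate cultures is not given, so that p-values measure only the spread between these libraries, and each target gene is represented by a single hairpin label.

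E2F factors bind DNA upstream of genes that drive cells from G1 into S phase, and most of them do so as dimers with a DP protein. E2F1, E2F2 and E2F3 are known as activators, which the retinoblastoma protein RB1 holds in check, while E2F4 and E2F5 act mainly as repressors together with the pocket proteins RBL1 and RBL2. E2F6 represses without a pocket protein as a subunit of a Polycomb complex, and E2F7 and E2F8 are atypical members that repress without a DP partner and are themselves targets of the activators. Members of the family can stand in for each other, so it was asked here whether any member rose where another fell.

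Total expected counts ran from 13198932 (shEZH2 replicate 1) to 20055550 (DMSO replicate 1) per library, and a count of 0 would allow up to 0.150 to 0.227 counts per 1000000 (CPM) by counting error only. The targeted genes followed their labels. EZH2 was at 153 and 182 CPM with the control hairpin and at 52.7 and 44.3 CPM with shEZH2, and E2F1 was at 143 and 139 CPM with the control hairpin and at 25.7 and 22.3 CPM with shE2F1. Genes known to be high in this line (VIM, CD44, CAV1 and AXL) summed to between 2331 and 4906 TPM, whereas 5 receptor and epithelial genes it lacks or holds at a low level summed to 48.0 to 69.9 TPM, with ESR1 and PGR near 0. The 9 markers of leukocytes, endothelial cells and fibroblasts summed to 0.71 to 7.80 TPM, with CD3E and DCN at 0 in every library. Their sum was higher in both knockdowns (3.57 to 7.80 TPM) than with the control hairpin (0.71 to 1.61 TPM). This lay mostly in LUM, at 0.12 to 0.48 TPM with the control hairpin, 2.83 to 3.62 TPM with shEZH2 and 2.07 to 6.05 TPM with shE2F1. VWF, PDGFRA and CDH5 were also higher, at up to 1.11 TPM. PTPRC, CD14 and PECAM1 were not above the control range in both knockdowns. The sum of the first 4 was lower with shEZH2 (2331 to 2595 TPM) and with shE2F1 (3928 to 4196 TPM) than with the control hairpin (4873 to 4906 TPM). Mitochondrial genes took 5.18 and 5.46% of counts with shEZH2 and 4.43 and 4.77% with the control hairpin, and the part of these in the changes below was not tested.

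Levels of different genes were compared in TPM (transcripts in 1000000), which divide by transcript length. With the control hairpin TFDP1 was the most abundant member, at 116 ± 1.92 TPM (SD, n = 2). E2F1 followed at 78.1 ± 4.87 TPM and E2F4 at 66.3 ± 3.52 TPM. E2F7 (23.8 ± 2.69 TPM), E2F3 (19.0 ± 0.898 TPM), E2F6 (15.8 ± 1.46 TPM), E2F8 (14.3 ± 1.05 TPM) and TFDP2 (12.7 ± 0.940 TPM) formed the middle of the order. E2F5 (5.78 ± 0.841 TPM) and E2F2 (2.52 ± 0.106 TPM) were lowest, and only E2F6 and E2F8 were neighbours whose libraries overlapped. The order with shEZH2 was different in the middle. There E2F7 (66.7 ± 6.16 TPM) and E2F4 (64.9 ± 2.04 TPM) overlapped behind TFDP1, and E2F3, E2F1 and E2F6 overlapped in turn at 31.8 ± 0.919, 30.1 ± 14.2 and 28.9 ± 1.39 TPM. With shE2F1 the targeted gene was the sixth in the order, at 15.3 ± 1.12 TPM, below TFDP2, E2F7 and E2F3. In DMSO and in GSK126, E2F1 and E2F4 overlapped behind TFDP1, and TFDP2 stood above E2F8.

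**Figure D1:**
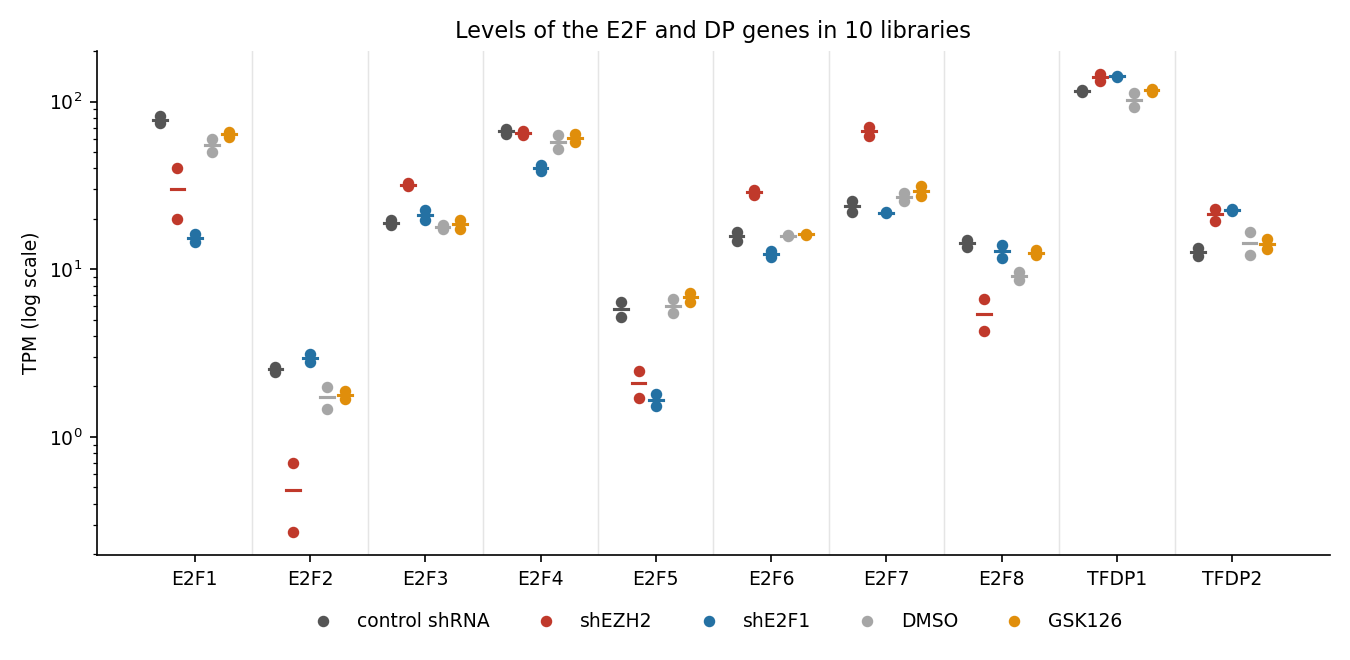
Level of each of the 10 genes in TPM on a log axis, with 1 point per library and a short line at the mean of the 2 libraries of a group. The shEZH2 points of E2F3, E2F6, E2F7, TFDP1 and TFDP2 lie above the control points and those of E2F1, E2F2, E2F5 and E2F8 below them, while the ratio of the GSK126 mean to the DMSO mean is farthest from 1 for E2F8, at 12.6 and 9.17 TPM.

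Activator genes are often themselves E2F targets, so their start regions were read for E2F motifs. RefSeq windows of 300 bases (GRCh38.p14, 250 bases before to 50 after a start) were given for 8 of the 10 members, 11 windows in all, and were searched on both strands for TTTCCCGC, TTTCGCGC, TTTGCCGC and TTTGGCGC. A match was found in 4 of the 11 windows, those of E2F1, E2F2, TFDP1 and the first of E2F3, against 3.31% of all 35116 windows in the table. E2F1 held 2 matches, and 51 windows (0.145%) of the table held 2 or more. The windows of E2F4, E2F6, E2F7 and TFDP2 held none of these letters. The matches are shown 5′ to 3′ on the strand of the gene, each with 11 bases on either side and the matched letters in capitals, since they are the places in these windows where the letters an E2F factor can bind occur in genes of the family itself. Those of E2F1 (first), E2F3 and TFDP1 lie on the opposite strand. A match describes the letters and is no binding site, and the matches do not overlap each other. The first E2F1 match begins 33 bases before the start (minus strand, chr20:33686400-33686429) and the second 20 bases before it (chr20:33686387-33686416). That of E2F2 begins 42 bases before the start (minus strand, chr1:23531257-23531286), that of E2F3 53 bases before it (plus strand, chr6:20401815-20401844) and that of TFDP1 120 bases before it (plus strand, chr13:113584622-113584651).
E2F1 first match: gtggctctttcGCGGCAAAaaggatttggc
E2F1 second match: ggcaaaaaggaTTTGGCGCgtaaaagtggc
E2F2: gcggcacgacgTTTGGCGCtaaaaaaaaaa
E2F3: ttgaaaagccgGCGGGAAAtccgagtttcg
TFDP1: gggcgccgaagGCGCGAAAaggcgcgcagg

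The first comparison asked how the family changed with the hairpin against EZH2. Of the 10 members 9 passed at an adjusted p under 0.05 in edgeR's quasi-likelihood test, where 55.6% of all 15373 genes tested passed. E2F3, E2F6, E2F7 and TFDP2 rose and E2F1, E2F2, E2F4, E2F5 and E2F8 fell, while 27% of all genes rose and 28.6% fell. At the thresholds of the study, an adjusted p under 0.01 and more than 2-fold, E2F7 was higher and E2F1, E2F2, E2F5 and E2F8 were lower (5 of 10, against 18.2% of all genes). Of the 4 genes with a motif match, E2F1 and E2F2 fell, E2F3 rose and TFDP1 did not pass. All changes are log2 differences in counts, given with their standard error (SE).

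Among the activators, E2F1 (ENSG00000101412, GRCh38 chromosome 20, 33675477 to 33686385, minus strand) fell in both shEZH2 libraries, but not to the same level. It was at 62.5 and 31.9 CPM against the 143 and 139 CPM of the controls, a change of -1.59 ± 0.23 (SE, edgeR adjusted p = 0.000172). With each library corrected for GC content and transcript length, the change in E2F1 was -1.17 (edgeR adjusted p = 0.00105). E2F2 (ENSG00000007968, chromosome 1, 23506438 to 23531233, minus strand) showed the largest decrease of the family. Its expected counts were 162 and 160 with the control hairpin and 29 and 15 with shEZH2, or 8.57 and 9.65 CPM against 2.19 and 0.854 CPM. The change was -2.64 ± 0.32 (SE, edgeR adjusted p = 5.97e-05), with -3.40 when shEZH2 replicate 1 was left out and -2.05 when shEZH2 replicate 2 was. E2F3 (ENSG00000112242, chromosome 6, 20401879 to 20493714, plus strand) moved the other way, from 57.1 and 65.2 CPM to 85.5 and 90.8 CPM. Its rise was 0.53 ± 0.11 (SE, edgeR adjusted p = 0.00151), and the groups did not overlap. After the GC and length correction the rise was 0.36 (edgeR adjusted p = 0.00951).

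The pocket-dependent repressors were both lower. E2F5 (ENSG00000133740, chromosome 8, 85177154 to 85217158, plus strand) had 120 and 131 expected counts with the control hairpin and 37 and 30 with shEZH2, a change of -1.68 ± 0.29 (SE, edgeR adjusted p = 0.000628). Of its exon bases 16.6% also belong to RBIS on the opposite strand, and the use of strand in counting is not stated. E2F4 (ENSG00000205250, chromosome 16, 67192155 to 67198918, plus strand), the more abundant of the pair, was at 79.1 and 92.7 CPM with the control hairpin and at 67.0 and 69.9 CPM with shEZH2. In TPM the groups overlapped, at 63.8 and 68.8 against 63.5 and 66.4. Its decrease of -0.33 ± 0.10 (SE, edgeR adjusted p = 0.0182) became 0.04 (adjusted p = 0.760) once each library was corrected for GC content and transcript length. It also lost its call without shEZH2 replicate 1, shEZH2 replicate 2 or control replicate 2 (adjusted p = 0.0830, 0.0502 and 0.116), with the effective length in the test (adjusted p = 0.140) and in a fit of all 10 libraries (adjusted p = 0.0976).

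E2F6 (ENSG00000169016, chromosome 2, 11444375 to 11466177, minus strand), the Polycomb-associated member, rose from 24.1 and 27.8 CPM to 38.7 and 42.7 CPM, by 0.65 ± 0.13 (SE, edgeR adjusted p = 0.00121). Of its 50-base stretches 11.6% occur in another gene, and no gene shares more of them than the pseudogene E2F6P1. The atypical repressors parted. E2F7 (ENSG00000165891, chromosome 12, 77021248 to 77065569, minus strand) had the largest increase, from 84.1 and 81.1 CPM to 207 and 199 CPM, by 1.298 ± 0.088 (SE, edgeR adjusted p = 2.21e-06), and 6.83% of tested genes had a higher change. After the GC and length correction the increase was 1.04 (edgeR adjusted p = 5.34e-06). E2F8 (ENSG00000129173, chromosome 11, 19224063 to 19241620, minus strand) fell from 30.2 and 35.6 CPM to 10.5 and 8.31 CPM, a change of -1.82 ± 0.15 (SE, edgeR adjusted p = 6.33e-06). That correction made the falls of E2F8 and E2F5 larger, at -1.93 and -1.94 (edgeR adjusted p = 3.72e-06 and 0.000241). Within a library, the ratio of E2F7 to E2F8 in TPM was 1.90 and 1.46 with the control hairpin and 10.7 and 14.6 with shEZH2. The messages of these related repressors differed by less than 2-fold in the control libraries and over 10-fold in the shEZH2 libraries.

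Of the DP partners, which bind DNA together with E2F1 to E2F6, TFDP1 (ENSG00000198176, chromosome 13, 113584721 to 113641473, plus strand) was at 133 and 145 CPM with the control hairpin and at 168 and 150.2 CPM with shEZH2. The libraries did not overlap, but the change of 0.19 ± 0.09 (SE, 95% interval -0.01 to 0.40) had an edgeR adjusted p of 0.0996. TFDP2 (ENSG00000114126, chromosome 3, 141944428 to 142149544, minus strand) rose from 42.5 and 36.3 CPM to 61.1 and 61.9 CPM, by 0.64 ± 0.11 (SE, edgeR adjusted p = 0.000535). After the GC and length correction the rise was 0.29 (adjusted p = 0.0314).

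**Figure D2:**
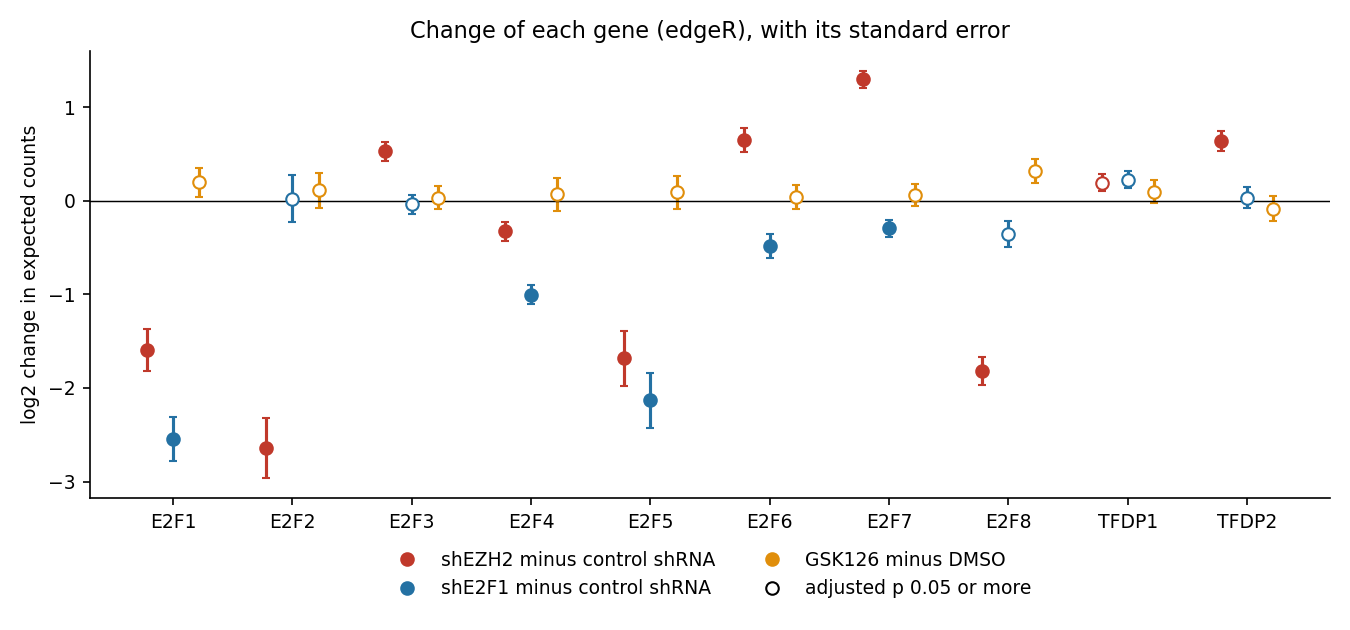
Log2 change of each of the 10 genes in shEZH2 and shE2F1 against control shRNA and in GSK126 against DMSO, with bars of 1 standard error. Filled points passed an adjusted p under 0.05 in edgeR. In shEZH2 4 points are filled above 0 and 5 below, in shE2F1 5 are filled and all lie below 0, and in GSK126 none is filled.

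The second comparison asked whether other members rose when E2F1 itself was the target. None did in the main test. Of the 10 members 5 passed at an adjusted p under 0.05, where 44.7% of all genes passed, and all 5 were lower, where 23.7% of all genes were lower and 21.1% higher. By DESeq2 the counts were also 5 lower and 0 higher. At an unadjusted p under 0.05 there were 7, where 52.8% of all genes had one, the others being E2F8 (lower) and TFDP1 (higher).

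E2F1 fell by 2.54 on the log2 scale (change -2.54 ± 0.24, SE, edgeR adjusted p = 1.52e-05). The other activators were where the controls were. E2F2 was at 8.83 and 9.57 CPM and changed by 0.02 ± 0.25 (SE), with a 95% interval of -0.54 to 0.58 that holds rises of under 2-fold only. E2F3 was at 55.8 and 62.6 CPM and changed by -0.04 ± 0.11 (SE), with a 95% interval of -0.27 to 0.19. Their edgeR adjusted p-values were 0.952 and 0.790.

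Both pocket-dependent repressors fell with E2F1. E2F4 went from 79.1 and 92.7 CPM to 42.3 and 42.7 CPM, a change of -1.005 ± 0.103 (SE, edgeR adjusted p = 2.94e-05). E2F5 went to 36 and 28 expected counts, or 1.71 and 1.497 CPM from 6.35 and 7.90 CPM, a change of -2.13 ± 0.29 (SE, edgeR adjusted p = 0.000207). Both passed the 2-fold threshold of the study, as E2F1 did, and 11.6% of all genes passed it. E2F6 fell to 19.6 and 17.3 CPM, by -0.48 ± 0.13 (SE, edgeR adjusted p = 0.0106), and E2F7 to 65.8 and 68.2 CPM, by -0.30 ± 0.09 (SE, edgeR adjusted p = 0.0191). Neither call was firm. E2F6 lost it without shE2F1 replicate 2 (adjusted p = 0.117) and without control replicate 2 (adjusted p = 0.0615), and E2F7 without shE2F1 replicate 1, without shE2F1 replicate 2 and without control replicate 1 (adjusted p = 0.148, 0.0996 and 0.0508), so that 3 members were left without shE2F1 replicate 2. E2F8 was at 24.6 and 26.5 CPM, below both controls, with a change of -0.36 ± 0.14 (SE, edgeR adjusted p = 0.0552). It passed with the GC and length correction (adjusted p = 0.0352), in a fit of the 4 libraries alone (0.0358) and without control replicate 1 (0.0323).

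TFDP1 was at 159 and 164 CPM with shE2F1, above both controls, with a change of 0.22 ± 0.09 (SE, edgeR adjusted p = 0.0691). It rose by this test when only genes with a mean of at least 50 counts were kept (0.27, adjusted p = 0.0265) or control replicate 2 was left out (0.29, adjusted p = 0.0490), and in no other alternative. TFDP2 was at 40.3 and 40.1 CPM, between the control libraries, and changed by 0.04 ± 0.11 (SE, edgeR adjusted p = 0.816). On the TPM scale TFDP2 looked otherwise, at 12.1 and 13.4 TPM with the control hairpin and 22.2 and 22.8 TPM with shE2F1. The mean transcript length that RSEM assigned to it was 5232 and 3832 bases with the control hairpin and 3039 and 3063 bases with shE2F1, and only 1.03% of 11918 genes with a mean of at least 50 counts had a length change as large. When the test took the effective length of each library into account, TFDP2 rose by 0.60 with an adjusted p of 0.00511. The DMSO libraries, at 3836 and 4255 bases, and the GSK126 libraries, at 3832 and 3946 bases, lay above those of shE2F1, and the 2 control libraries differed more than any other pair. Counts per gene cannot show which of its 24 annotated transcripts moved.

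**Figure D3:**
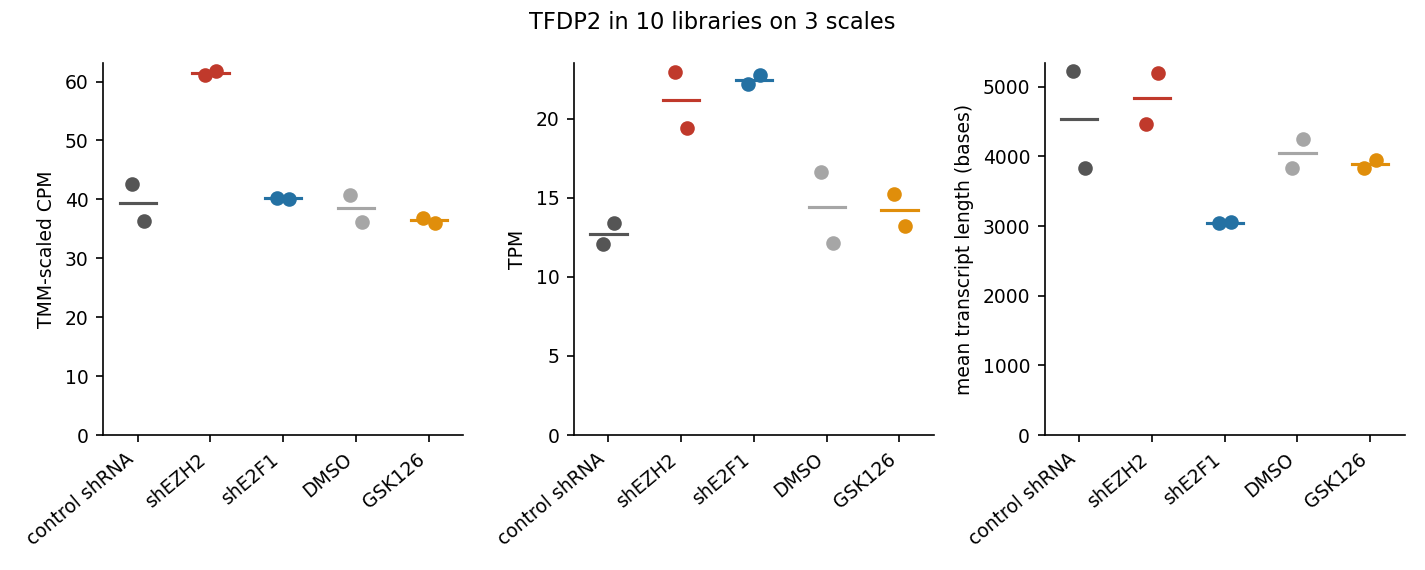
TFDP2 in each library as TMM-scaled CPM, as TPM and as the mean transcript length RSEM assigned, with a line at the mean of each group. The shE2F1 libraries lie between the controls in the first panel, exceed them in the second and have the shortest lengths in the third.

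Levels were also summed to compare amounts of message, which do not show whether 1 member stood in for another in function. On the TPM scale the median of 11918 genes was itself higher in the knockdowns, by 0.16 (shEZH2) and 0.17 (shE2F1) on the log2 scale, against medians of -0.03 and -0.05 in TMM-scaled CPM, so each ratio of sums is also given in TMM-scaled CPM per kilobase. E2F1, E2F2 and E2F3 together made 102.4 and 96.9 TPM with the control hairpin, 72.0 and 52.8 TPM with shEZH2 and 38.5 and 40.2 TPM with shE2F1. These are ratios to the control mean of 0.626 and 0.395, or 0.545 and 0.342 in CPM per kilobase. E2F1 made 79.7 and 77.1% of this sum in the control libraries, 55.7 and 37.9% with shEZH2 and 41.9 and 36.2% with shE2F1.

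With shEZH2, E2F1 was lower by 48.1 TPM on average and E2F2 and E2F3 together were higher by 10.8 TPM. With shE2F1, E2F1 was lower by 62.8 TPM and E2F2 and E2F3 together were higher by 2.50 TPM, a ratio of 1.12 that became 0.963 in CPM per kilobase. All 8 E2F genes summed to 225 and 226 TPM with the control hairpin, 243 and 217 TPM with shEZH2 and 125 and 131 TPM with shE2F1. The ratio of that sum was 1.02 in shEZH2, or 0.890 in CPM per kilobase, and 0.568 in shE2F1, or 0.491. Without E2F1 the other 7 genes summed to a ratio of 1.36 in shEZH2 (1.18 in CPM per kilobase) and of 0.765 in shE2F1 (0.661). The summed message without E2F1 was larger in shEZH2, most of all through E2F7, an atypical repressor, and smaller in shE2F1. Sums over all 8 genes pool activators and repressors, so they do not measure replacement of E2F1 as an activator. E2F7 and E2F8 together went from 36.9 and 39.2 TPM to between 66.6 and 77.6 TPM with shEZH2. No test was made on these sums.

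**Figure D4:**
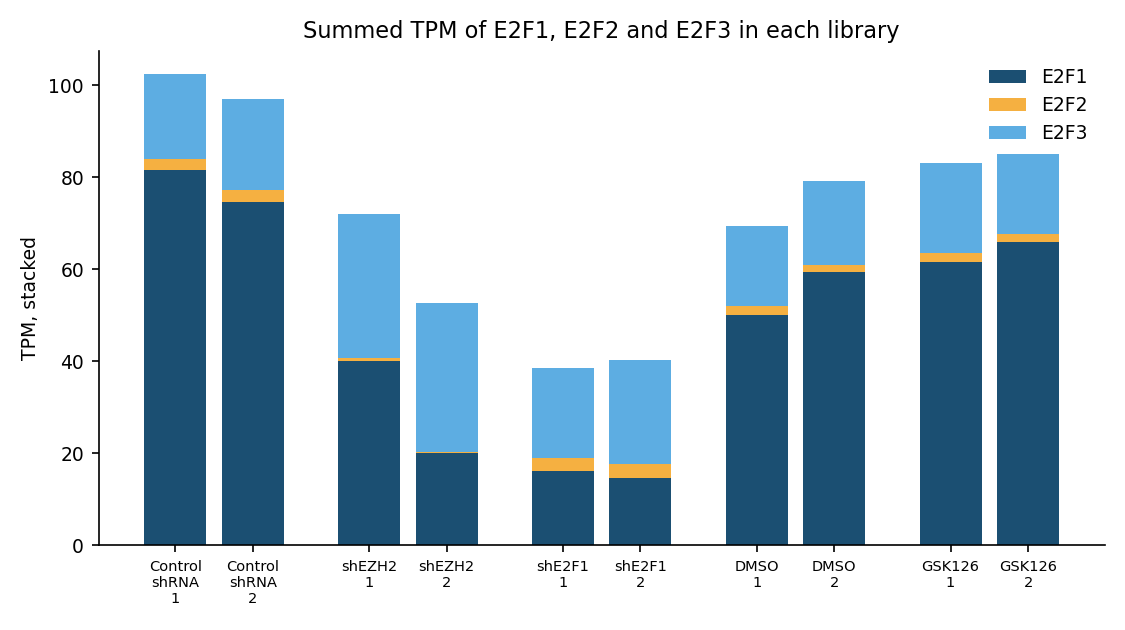
Stacked TPM of E2F1, E2F2 and E2F3 in each of the 10 libraries, with bars starting at 0. The control bars reach 102.4 and 96.9 TPM, the shEZH2 bars 72.0 and 52.8 TPM and the shE2F1 bars 38.5 and 40.2 TPM, and E2F1 makes up most of each control, DMSO and GSK126 bar.

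Both hairpin effects share the control libraries, so the shEZH2 and shE2F1 libraries were also tested against each other directly. Of the 10 members 8 passed, 6 higher and 2 lower in shEZH2 than in shE2F1, where 60.3% of all genes passed (29.7% higher, 30.6% lower). E2F7 differed most in the upward direction, by 1.59 ± 0.09 (SE, edgeR adjusted p = 3.12e-07), and E2F6 by 1.13 ± 0.13 (SE, edgeR adjusted p = 2.4e-05). Each of these had risen with shEZH2 and fallen with shE2F1. E2F2 was lower in shEZH2 by -2.66 ± 0.32 (SE, edgeR adjusted p = 3.87e-05) and E2F8 by -1.46 ± 0.15 (SE, edgeR adjusted p = 1.43e-05). E2F1, E2F3, E2F4 and TFDP2 were higher in shEZH2, by 0.95, 0.57, 0.68 and 0.60. Without shEZH2 replicate 1 the difference in E2F1 was 0.41. After the GC and length correction it was 1.34 in E2F1 and 0.38 in E2F3 (edgeR adjusted p = 0.000515 and 0.00631). The difference in TFDP2 became -0.06 (adjusted p = 0.736) with the effective length in the test and 0.20 (adjusted p = 0.105) after the GC and length correction. E2F5 had a difference of 0.45 ± 0.33 (SE, 95% interval -0.27 to 1.17) and TFDP1 one of -0.03 ± 0.09 (SE, 95% interval -0.24 to 0.17), neither of which passed.

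The third comparison asked whether inhibition of the enzyme moved the family as loss of its message did. No member passed in GSK126 against DMSO, and 0% of 14632 genes did. By DESeq2 no member passed either, and 1 member, E2F8, was under 0.05 in edgeR before adjustment, as 3.94% of all genes did. E2F1 was at 84.1 and 109 CPM in DMSO and at 102 and 119.6 CPM in GSK126, with overlapping groups and a change of 0.20 ± 0.16 (SE, 95% interval -0.18 to 0.57). E2F8 was at 19.98 and 20.9 CPM in DMSO and at 24.5 and 26.8 CPM in GSK126, with a change of 0.32 ± 0.13 (SE, 95% interval 0.01 to 0.63). The others changed by between -0.08 (TFDP2) and 0.11 (E2F2). Over the 10 members the lower bounds of the 95% intervals reached -0.40 (TFDP2) and the upper bounds 0.63 (E2F8), so that larger changes lie outside them. Replicates of the same number deviated together in these 4 libraries (r = 0.625 over 11919 genes). With the replicate number as a block, E2F1 (0.20, adjusted p = 0.00151) and E2F8 (0.32, adjusted p = 0.00779) passed, both higher, and 13.6% of all genes passed. E2F1 was higher by 0.28 and 0.14 and E2F8 by 0.30 and 0.36 in replicates 1 and 2. Both genes were lower with shEZH2.

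The effect of shEZH2 and that of GSK126 share no library, and their difference was tested in a fit of all 10. It passed for 8 members, 4 of them lower and 4 higher, where 36.6% of 15773 genes passed (19.7% lower, 16.9% higher). E2F1 (-1.78 ± 0.32, SE), E2F2 (-2.74 ± 0.40), E2F5 (-1.76 ± 0.34) and E2F8 (-2.13 ± 0.21) were lower under the hairpin than under the inhibitor, with edgeR adjusted p-values of 0.00129, 0.000348, 0.00177 and 3.42e-05. E2F7 (1.25 ± 0.15), TFDP2 (0.73 ± 0.17), E2F6 (0.62 ± 0.19) and E2F3 (0.51 ± 0.17) were higher, with adjusted p-values of 9.7e-05, 0.00506, 0.022 and 0.0325. With the replicate block and the GC and length correction together, the differences in TFDP2 and E2F3 were 0.395 and 0.337 (adjusted p = 0.026 and 0.0349). When a library was left out 6 to 8 members passed. E2F3 and E2F6 lost their calls without shEZH2 replicate 2, control replicate 1 or DMSO replicate 2, E2F3 also without GSK126 replicate 2 and E2F6 without GSK126 replicate 1. The hairpin and the drug also differ in vector, selection and experiment, which cannot be told apart from the difference between loss and inhibition of EZH2.

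The genes around the family were read from fixed lists, as counts in each direction. Among the pocket proteins, RBL2 rose in shEZH2 by 1.09 ± 0.16 (SE, adjusted p = 0.000213), 1 of 3, with RB1 at -0.14 ± 0.09 and RBL1 at 0.16 ± 0.09. In shE2F1 both RBL1 (0.63 ± 0.09, adjusted p = 0.000279) and RBL2 (0.74 ± 0.16, adjusted p = 0.00341) rose, and RB1 was again at -0.14 ± 0.09. RBL1 and RBL2 are the partners of E2F4 and E2F5, both of which were lower there.

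The MuvB core forms the repressive DREAM complex with E2F4 or E2F5 and RBL1 or RBL2, and other complexes with MYBL2 or FOXM1. Of 8 genes of the core and its partners in all of these, 3 rose and 2 fell in shEZH2 (62.5% passed, against 55.6% of all genes). In shE2F1 3 rose and 3 fell (75%, against 44.7%). With the GC and length correction 1 rose and 2 fell in shEZH2. DYRK1A, the kinase that assembles DREAM, changed by 1.06 ± 0.11 in shEZH2 and by -0.64 ± 0.11 in shE2F1, and passed in both, the former at 0.59 after that correction. MYBL2, which takes over MuvB in late cell cycle and is an E2F target, fell in shEZH2 by -1.19 ± 0.18 (-0.79 after that correction). In shE2F1 MYBL2 rose, by 0.51 ± 0.17 (SE, edgeR adjusted p = 0.0333). The largest changes of the list in shE2F1 were in core genes and went opposite ways. LIN52 fell by -1.59 ± 0.18 and LIN37 rose by 1.27 ± 0.17 (SE, edgeR adjusted p = 5.23e-05 and 0.000177). In mean TPM LIN52 differed less, at 7.465 with the control hairpin and 6.04 with shE2F1. FOXM1, a driver of G2/M genes, fell in shE2F1 by -0.69 ± 0.09. Of 10 partners of E2F6 in its Polycomb complex, 6 rose and 2 fell in shEZH2 (27% and 28.6% of all genes did), and 2 rose and 3 fell in shE2F1, where 50% passing was near the 44.7% of all genes. RYBP rose in both, by 1.17 ± 0.10 and 0.53 ± 0.10. RING1, a ubiquitin ligase subunit, fell by -0.89 ± 0.12 in shEZH2 (-0.415 after the GC and length correction) and rose by 0.75 ± 0.11 in shE2F1, and its paralog RNF2 rose by 0.70 ± 0.11 and fell by -0.45 ± 0.12.

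Upstream of the pocket proteins, 5 of 11 tested cyclin D, CDK and inhibitor genes rose and 5 fell in shEZH2, where 27% of all genes rose and 28.6% fell, and 2 rose and 7 fell in shE2F1, where 21.1% rose and 23.7% fell. CCND1, a D cyclin, fell in shEZH2 by -1.25 ± 0.11, and CDKN2C, an inhibitor of CDK4 and CDK6, fell in both knockdowns, by -1.16 ± 0.10 and -1.25 ± 0.09. CDK6 rose in shEZH2 by 0.97 ± 0.11 (0.52 after the GC and length correction) and fell in shE2F1 by -1.22 ± 0.11, the same pair of directions as E2F6 and E2F7.

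Among 24 textbook G1/S targets of E2F factors, 2 rose and 19 fell in shEZH2, where 27% of all genes rose and 28.6% fell. Their median change was -0.63, against -0.02 over all genes tested. In shE2F1 4 rose and 9 fell, where 21.1% of all genes rose and 23.7% fell. The 54.2% passing there was near the 44.7% of all genes, and the median was -0.16, against 0.00. TK1, an enzyme of nucleotide supply, fell in shEZH2 by -2.24 ± 0.15, MCM6, a part of the replicative helicase, by -1.68 ± 0.18, and TYMS by -1.41 ± 0.14. RRM2, a subunit of ribonucleotide reductase, fell in shE2F1 by -2.42 ± 0.23, close to the change of E2F1 itself, while the repair gene BRCA1 (1.04 ± 0.11) rose there. Of 16 G2/M genes, 12 fell in shEZH2 (28.6% of all genes did) and 16 in shE2F1 (23.7% of all genes), and none rose in either. PLK1 and CCNB1, which drive mitosis, fell by -1.65 ± 0.12 and -1.28 ± 0.11 in shEZH2 and by -1.26 ± 0.11 and -1.26 ± 0.11 in shE2F1. Of the RefSeq start windows given for these genes, 12 of 29 for the G1/S targets and 3 of 15 for the G2/M genes held an E2F motif match, against 3.31% of all windows. The G1/S genes were chosen as known E2F targets, so their count is no independent result. In bulk RNA fewer cells in a phase and less RNA per cell cannot be told apart, and the part of cell cycle phase in the changes of the E2F genes was not tested.

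Of 9 cell death genes described as E2F1 targets, 6 rose and 1 fell in shEZH2 (27% and 28.6% of all genes did) and 3 rose and 3 fell in shE2F1 (21.1% and 23.7%). PMAIP1, which codes for NOXA, rose in shEZH2 by 0.74 ± 0.09. TP73, a relative of the p53 gene, fell in shEZH2 by -1.84 ± 0.26. BBC3, which codes for PUMA, rose in shE2F1 by 1.11 ± 0.24. In GSK126 none of the 81 tested genes of these 7 lists passed in edgeR, as none of all genes did, and with the replicate number as a block 21 passed, 16 higher and 5 lower (25.9%, against 13.6% of all genes).

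**Figure D5:**
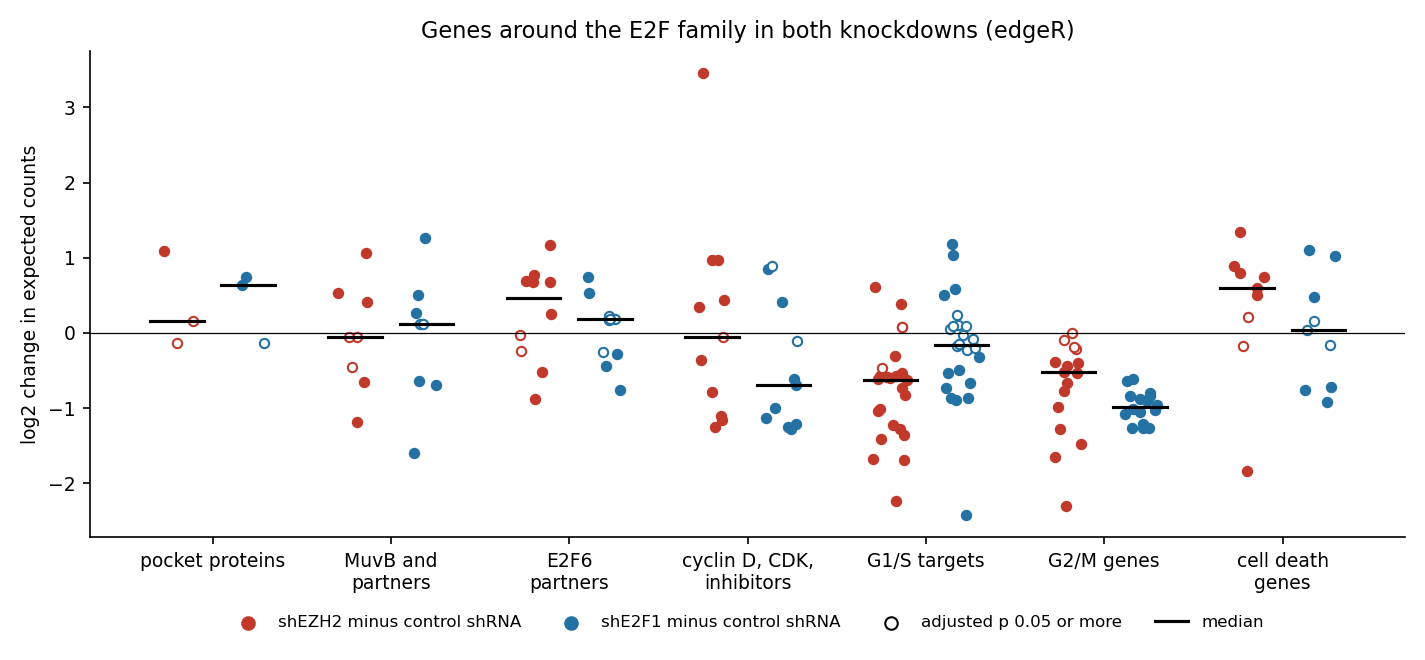
Log2 change of every tested gene of 7 lists in shEZH2 and in shE2F1 against control shRNA, with a line at the median of each list and open points for genes that did not pass an adjusted p under 0.05 in edgeR. The shEZH2 points of the G1/S targets lie mostly below 0 (19 of 24 fell, where 28.6% of all genes did). All 16 G2/M genes fell in shE2F1, where 23.7% of all genes did.

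The genes whose pattern over the 10 libraries was most like that of a member were found as those with the smallest root mean square difference of centred log2 CPM, among 9670 genes with a mean of at least 10 CPM. They are a description of libraries that share treatment and depth. For E2F1 the nearest was RRM2 (difference 0.17, where E2F1 itself varied by 0.98), followed by CDH4 (0.22) and SLC5A6 (0.26). For E2F8 it was EZH2 (0.11, own variation 0.63), then FARSB and RRP1 (both 0.16). E2F1 and EZH2 are themselves hairpin targets, so likeness to either partly restates the falls given above. Shared regulation was not tested. E2F7 was nearest to PLAGL2 (0.10, own variation 0.54), E2F6 to ACP1 (0.07, own variation 0.38), E2F4 to BANF1 (0.07, own variation 0.37), E2F5 to ITGA3 (0.19, own variation 1.00) and E2F2 to GINS4 (0.27, own variation 1.05). The nearest genes of E2F3, TFDP1 and TFDP2, whose group means spanned less than 2-fold, are not described.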

How the data were processed

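Poly(A) RNA was sequenced with a strand-specific kit. The authors aligned reads with STAR and estimated abundance with RSEM (STAR 2.7.2b and RSEM 1.3.1 in the submitters' processing notes, another STAR version in the methods of the study) on hg38 with Ensembl release 108. The deposited files hold expected counts, where reads that fit several genes are divided among them, and TPM. The use of strand in counting is not given in the sources used here. Effective lengths came from the same files. Names and coordinates are those of GENCODE 44, where 99.88% of identifiers were found.

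Expected counts were rounded and tested with edgeR 4.0.16 in R 4.3.3 (filterByExpr, TMM, quasi-likelihood F-test, Benjamini-Hochberg over all genes tested), the 6 knockdown libraries together and the 4 drug libraries apart, without covariates. The biological coefficient of variation was 0.0948 and 0.126, or 0.0242 in the drug libraries with the replicate as a block. Alternatives were DESeq2 1.42.0, its size factors, other filters, effective length as an offset, a correction for GC content and length, the replicate block, other sets of libraries and each library left out. In simulated data 200 genes with a mean of at least 50 counts were changed 2-fold or 4-fold, and each library was drawn independently. Genes changed 2-fold were recovered at 86% (shEZH2), 89% (shE2F1) and 88% (between the knockdowns), with 15373 genes in each. They were recovered at 86% in GSK126 (14632 genes) and 68% in the difference of effects (15773 genes). In the same order, 10.6, 8.3, 12.1, 7 and 6.8% of the calls were false. All genes changed 4-fold were recovered except in the difference of effects (96%). The data differ from this setting, since far more genes passed in the knockdowns and the drug replicates deviated together. These rates need not hold for the data. Members, lists and the rule for named genes (the 10 members, EZH2, and at most 4 genes with the lowest p of each list and knockdown) were chosen with earlier results of these data known. A few genes that the rule names are not reported here. The target sequences of the hairpins were not used here. Figures were drawn with matplotlib 3.10.9.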

Additional observations from a re-analysis of the deposited data

Results flagged for a closer look

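The effect of shEZH2 differed from that of GSK126 for 8 members by a direct test of the difference (edgeR, adjusted p under 0.05). The differences were -1.78 for E2F1, -2.74 for E2F2, 0.51 for E2F3, -1.76 for E2F5, 0.62 for E2F6, 1.25 for E2F7, -2.13 for E2F8 and 0.73 for TFDP2. Those of E2F3 and E2F6 were lost without single libraries of 4 groups. E2F6 and E2F7 passed in opposite directions in shEZH2 and shE2F1, and the direct differences between these knockdowns were 1.13 and 1.59.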

How the results depend on the processing

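Over all alternatives 645 of 700 recomputed changes of single members kept their direction and their side of the threshold, 21 lost their call, 13 gained one and 21 turned sign. At the study's thresholds 5 members passed in shEZH2, 3 in shE2F1, 4 between the knockdowns and 5 in the difference between shEZH2 and GSK126, since the rule is stricter. Of all genes 18.2, 11.6, 23.3 and 13.8% passed in these comparisons. The GC and length correction turned E2F4 in shEZH2 to 0.044, and to 0.047 with the replicate block. The effective length offset turned TFDP1 (0.014) and TFDP2 (-0.056) between the knockdowns and TFDP1 (-0.071) between shEZH2 and GSK126, and a mean of at least 50 counts turned E2F3 in shE2F1 to 0.005. The cause of these was not tested. In CPM per kilobase the summed activators in shE2F1 had a ratio of 0.342 in place of 0.395.

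The replicate block left 9, 5 and 8 members passing in the knockdown comparisons. It gave 2 in GSK126, also with the GC correction, and 9 in the difference between shEZH2 and GSK126, E2F4 being added. Replicates of the same number deviated together less within the knockdown groups (r of 0.043 to 0.224) than in the drug groups (r of 0.625). The shared number of the drug replicates is not stated to mark a batch. All genes passing in GSK126 numbered 0, 1990 with the block, 19 by DESeq2 and 577 at an unadjusted p under 0.05.

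When each library was left out in turn, 8 to 9 members passed in shEZH2, 3 to 5 in shE2F1, 8 in each fit between the knockdowns, 0 in each in GSK126 and 6 to 8 in the difference of effects, and all genes passing in shE2F1 numbered 4214 to 6259. The ratio of the summed activators was 0.530 to 0.722 in shEZH2, 0.384 to 0.406 in shE2F1 and 1.06 to 1.21 in GSK126. Members that turned sign in such fits had ranges across 0 and passed in none: in shE2F1 E2F2 (-0.061 to 0.109), E2F3 (-0.132 to 0.059) and TFDP2 (-0.073 to 0.158), in GSK126 E2F3 (-0.057 to 0.132), E2F4 (-0.114 to 0.264), E2F5 (-0.002 to 0.181), E2F6 (-0.028 to 0.121), E2F7 (-0.04 to 0.16), TFDP1 (-0.01 to 0.22) and TFDP2 (-0.176 to 0.021), and TFDP1 between the knockdowns (-0.103 to 0.048) and between effects (-0.028 to 0.222). E2F2 in shEZH2 and E2F5 in both knockdowns had under 40 counts in each library, which limits the precision of their changes.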
